A study of Homo sapiens with 6 samples.

Results

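The 9 genes described here code for the receptors, kinases and transcription factors through which a cell responds to interferon: IFNAR1, IFNAR2, IFNGR1, IFNGR2, JAK1, JAK2, TYK2, STAT2 and STAT3. They were taken by symbol from a table of read counts for 21173 genes, and all 9 were present and passed the filter on low counts. The libraries came from TPC1, a human papillary thyroid cancer line that carries a RET fusion. There were 3 libraries of cells with a vector, whose genotype the labels give as WT, and 3 in which TFCP2L1 was overexpressed. TFCP2L1 belongs to the CP2 branch of the grainyhead-like transcription factors. The promoter that drives TFCP2L1, the vector, and whether the cells were a single clone were not stated in the sources used here. The comparison of the 2 groups asked how overexpression of TFCP2L1 changes transcript levels in these cells.

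Type I interferon binds a receptor of IFNAR1 and IFNAR2, which carry the kinases TYK2 and JAK1. Interferon gamma binds a receptor of IFNGR1 and IFNGR2, which carry JAK1 and JAK2. The kinases phosphorylate STAT proteins. STAT2 and IRF9 are subunits of the complex ISGF3, which binds the interferon-stimulated response element (ISRE), while STAT dimers such as those of STAT3 bind the gamma-activated site (GAS). STAT3 is best known as the factor downstream of interleukin 6 and its relatives. STAT2, IRF9 and the feedback inhibitor USP18 are themselves known to be induced by interferon.

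STAT2 and STAT3 were the members that rose, and the stretches upstream of their starts are shown for that reason. Each stretch holds the bases of the RefSeq promoter window (GRCh38.p14) that lie before every start of the gene in GENCODE v29, read 5′ to 3′ on the minus strand. Capitals mark the GC box, GGGCGG or its reverse complement. The STAT2 stretch is chr12:56360156-56360357, with 67.8% G and C, and the STAT3 stretch is chr17:42388569-42388692, with 61.3%.
STAT2: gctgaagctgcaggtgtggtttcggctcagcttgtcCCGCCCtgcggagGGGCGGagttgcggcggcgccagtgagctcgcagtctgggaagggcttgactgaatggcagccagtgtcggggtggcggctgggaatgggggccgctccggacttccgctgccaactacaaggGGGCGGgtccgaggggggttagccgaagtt
STAT3: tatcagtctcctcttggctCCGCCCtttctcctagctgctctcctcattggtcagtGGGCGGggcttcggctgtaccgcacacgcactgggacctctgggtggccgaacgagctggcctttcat

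The STAT2 stretch held 3 GC boxes and the STAT3 stretch 2. A GC box was found in 45% of all 35116 RefSeq promoter windows of 300 bases, which run from 250 bases before to 50 after a start. RefSeq windows were matched for 8 of the 9 members, 15 windows in all. GC boxes were not confined to the members that rose. A window of JAK1 held 6, and windows of IFNGR2, IFNAR1, IFNGR1 and JAK2 held up to 5, 3, 2 and 1. The TYK2 window held 0. On either strand, the ISRE letters GAAANNGAA were in 8.11% of all windows and the GAS letters TTCNNNGAA in 7.66%, and 0 of the 15 windows of the members held either. The paired half-site bound by CP2 factors is a loose motif, found in 60.3% of all windows. Of the 8 matched members, 6 had it in some window, JAK1, JAK2, IFNGR1, IFNGR2, STAT2 and STAT3. Some members have several windows, so this count of genes cannot be set against the share of windows. Matches of the paired half-site can overlap GC boxes. A match is no evidence of binding, and the absence of letters from these windows says nothing of sites elsewhere.

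Library totals ran from 37928516 to 38987434 reads, and 14431 genes were tested. Reads of TFCP2L1 itself numbered 0, 0 and 1 with the vector and 13578, 13885 and 12333 with overexpression. Of 10 thyroid and epithelial markers 7 were listed, among them PAX8, the thyroid lineage factor, with means of 544 (vector) and 478 (TFCP2L1) CPM (reads relative to the TMM-scaled library total), while TG, which codes for thyroglobulin, was near 1 CPM. Of the 5 tested, KRT7, a keratin of simple epithelia, was called, falling from 9.15 to 4.69 CPM (log2 fold change -0.96; edgeR adjusted p = 0.00202). Of 6 leukocyte markers 3 were listed, with a summed level of 0.343 to 0.744 CPM in vector and 0.104 to 0.383 CPM in TFCP2L1 libraries, and 4 of 5 fibroblast markers were listed, with sums of 6.11 to 6.85 and 4.02 to 5.20 CPM. Of these, COL1A1 and LUM were tested and not called, and the part of such cells in the results was not tested. Nothing in the labels ties replicates to separate cultures. The p-values then reflect only how far these samples spread, which may be technical. In RNA of whole cultures, fewer cells with a transcript and less of it per cell cannot be told apart.

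Levels are given per length as the authors' FPKM where genes are compared with each other. All 9 genes were expressed in vector cells. IFNGR2 was the highest, at 43.1 ± 0.886 FPKM (SD, n = 3), followed by JAK1 (33.2 ± 0.552), STAT3 (25.1 ± 1.08) and TYK2 (14.98 ± 0.692). IFNGR1 (11.7 ± 0.128) and IFNAR1 (11.5 ± 0.374) overlapped in their libraries, while IFNAR2 (10.7 ± 0.198), STAT2 (8.99 ± 0.319) and JAK2 (1.82 ± 0.138) each stood below the gene before them in every library. JAK2 was the only member below 5 FPKM in either group.

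The order differed in TFCP2L1 cells. IFNGR2 was still the highest, at 39.6 ± 1.41 FPKM (SD, n = 3), but STAT3 (31.1 ± 1.24) now had a higher mean than JAK1 (26.7 ± 3.56), with overlapping libraries. TYK2 followed at 15.4 ± 1.44 FPKM. STAT2, at 12.6 ± 0.944 FPKM, moved from rank 8 to rank 5, with libraries that overlapped those of IFNAR1 (11.5 ± 0.472). IFNGR1 (10.02 ± 0.792), IFNAR2 (9.10 ± 0.0634) and JAK2 (2.07 ± 0.264) came last, each below the gene before it in every library.

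**Figure D1:**
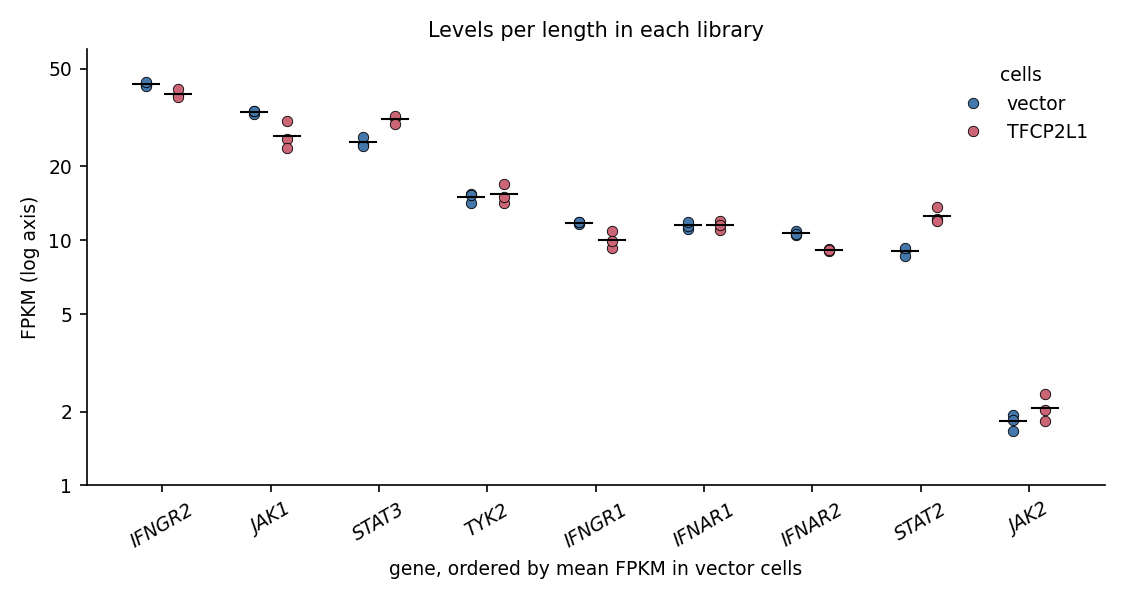
FPKM on a log axis of the 9 genes in each of the 3 vector and 3 TFCP2L1 libraries, with genes ordered by their mean in vector cells and lines at the group means. JAK2 sits at about 2 FPKM, far below the other 8 genes, and STAT2 and STAT3 are the genes whose TFCP2L1 points all lie above their vector points.

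Both STAT members rose in TFCP2L1 cells, JAK1 and IFNAR2 fell, and the other 5 members were not called by edgeR's quasi-likelihood test (adjusted p under 0.05 after Benjamini-Hochberg). Over all genes, 11.6% of tested genes were called, 4.63% higher and 6.94% lower, and 13.6% of the 8541 genes at least as abundant as JAK2, the lowest member. The share of the members, 4 of 9, was above these, but the set was chosen with earlier results known and is too small for the share to be read further. The changes were small. The median log2 fold change of the 9 members was -0.02 against 0.0026 for all tested genes, and their median absolute change was 0.26 against 0.16. For 6 members, 2 higher and 4 lower, the groups were fully separate, as they were for 30% of all tested genes and for 33.1% of those at least as abundant as JAK2. Only STAT2 stayed called without each of the 6 libraries in turn. The number of members called was 1 without vector replicate 1 or TFCP2L1 replicate 1, 2 without vector replicate 2 or 3, 3 without TFCP2L1 replicate 3 and 4 without TFCP2L1 replicate 2.

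**Figure D2:**
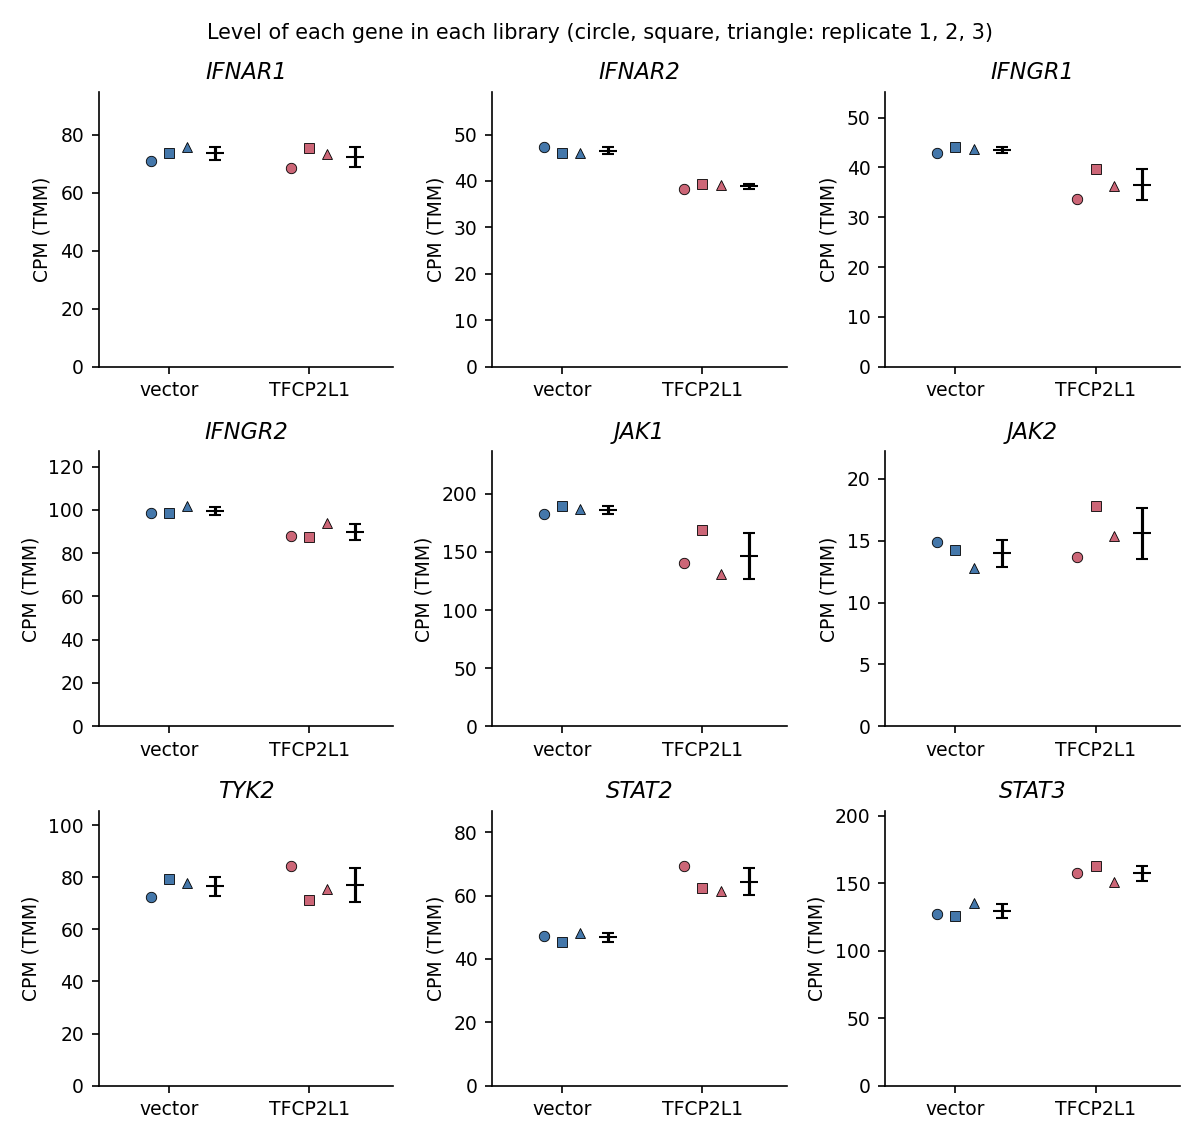
CPM of each gene in each library on axes that start at 0, with circles, squares and triangles for replicates 1, 2 and 3 and a bar for the mean ± SD of each group of 3. The groups do not overlap for IFNAR2, IFNGR1, IFNGR2 and JAK1, which are lower in TFCP2L1 cells, and for STAT2 and STAT3, which are higher.

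Of the receptors for type I interferon, IFNAR1, the low-affinity subunit that binds TYK2, was not called. Its gene lies on chromosome 21 (GRCh38, 33324477 to 33359862). IFNAR1 was at 71.1, 73.8 and 75.7 CPM in the vector libraries and at 68.6, 75.4 and 73.1 CPM in the TFCP2L1 libraries. The groups overlapped, and the log2 fold change of -0.02 ± 0.08 (SE) had a 95% interval of -0.18 to 0.14. Its adjusted p was 0.8998 by edgeR.

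IFNAR2, the high-affinity subunit that also binds STAT2, is encoded on the same chromosome (33229901 to 33265675). IFNAR2 was at 47.3, 46.1 and 46.0 CPM in the vector libraries and at 38.2, 39.3 and 39.0 CPM in the TFCP2L1 libraries. Every TFCP2L1 library lay below every vector library. The log2 fold change was -0.26 ± 0.08 (SE; 95% interval -0.43 to -0.09), with an edgeR adjusted p of 0.0474. This call sat at the threshold and was lost without any of the 6 libraries, with adjusted p at 0.180, 0.114 and 0.145 without vector replicates 1, 2 and 3 and at 0.116, 0.0537 and 0.0628 without TFCP2L1 replicates 1, 2 and 3. Of the exon bases of IFNAR2, 44.2% are shared with a readthrough gene on the same strand and 39.1% with the antisense gene IL10RB-DT, which had 0 to 9 reads in any library. The sources used here do not state how reads on shared bases were counted.

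Of the receptors for interferon gamma, IFNGR1 is the ligand-binding subunit and carries JAK1. Its gene is on chromosome 6 (137197484 to 137219449). IFNGR1 was at 43.0, 44.1 and 43.7 CPM in the vector libraries and at 33.6, 39.8 and 36.2 CPM in the TFCP2L1 libraries. The TFCP2L1 libraries were all lower and were more spread than the vector libraries. The log2 fold change was -0.26 ± 0.09 (SE; 95% interval -0.44 to -0.07) and the edgeR adjusted p was 0.0755, so IFNGR1 was not called. Without TFCP2L1 replicate 2, the highest of its group, the adjusted p was 0.0292.

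IFNGR2, the subunit that carries JAK2 and that starts signalling, was at 98.4, 98.7 and 101.6 CPM in the vector libraries and at 87.9, 87.4 and 93.9 CPM in the TFCP2L1 libraries. The groups did not overlap, but the difference was small: the log2 fold change was -0.15 ± 0.07 (SE; 95% interval -0.30 to 0.0032) and the edgeR adjusted p was 0.209. Its gene (chromosome 21, 33402896 to 33479348) shares 12.8% of its exon bases with the antisense gene TMEM50B, which had 713 to 1084 reads per library.

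IFNAR2, IL10RB, IFNAR1 and IFNGR2 lie in this order within 249 kb of chromosome 21, all on the plus strand. IL10RB, a subunit shared by the receptors for interleukin 10 and for interferon lambda, was at 69.4, 65.0 and 63.4 CPM in vector and 55.8, 67.0 and 65.4 CPM in TFCP2L1 libraries. Its groups overlapped, with a log2 fold change of -0.07 ± 0.09 (SE) and an edgeR adjusted p of 0.660. The readthrough gene also shares 38.1% of the exon bases of IL10RB. Of the 4 neighbours, only IFNAR2 was called, and whether its change differed from that of the others was not tested.

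JAK1, the kinase that serves both interferon receptors and those of the interleukin 6 family, had the largest fall among the members. Its gene is on chromosome 1 (64833229 to 64966504). JAK1 was at 182, 189 and 187 CPM in the vector libraries and at 140, 169 and 131 CPM in the TFCP2L1 libraries. All 3 TFCP2L1 libraries were lower, with replicate 2 nearer to the vector libraries than the other two. The mean fell from 186 ± 3.57 to 147 ± 19.8 CPM (SD, n = 3), a log2 fold change of -0.34 ± 0.09 (SE; 95% interval -0.53 to -0.16) with an edgeR adjusted p of 0.0178. The call was lost when vector replicate 1 (0.0557), 3 (0.0840) or TFCP2L1 replicate 1 (0.0889) was left out, and the adjusted p was 0.000831 without TFCP2L1 replicate 2.

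The other kinases were not called. JAK2, the kinase of IFNGR2 and of many hormone-like cytokine receptors (chromosome 9, 4984390 to 5128183), was at 14.9, 14.3 and 12.8 CPM in the vector libraries and at 13.7, 17.8 and 15.4 CPM in the TFCP2L1 libraries. TYK2, the kinase of IFNAR1 (chromosome 19, 10350529 to 10380676), was at 72.3, 79.2 and 77.9 CPM in the vector libraries and at 84.3, 71.4 and 75.4 CPM in the TFCP2L1 libraries. The groups overlapped for both. The log2 fold change of JAK2 was 0.16 ± 0.12 (SE; 95% interval -0.10 to 0.42; edgeR adjusted p = 0.473), the widest interval among the members. The log2 fold change of TYK2 was 0.01 ± 0.08 (SE; 95% interval -0.16 to 0.19; edgeR adjusted p = 0.959). Among the TFCP2L1 libraries, replicate 2 held the highest level of IFNAR1, IFNAR2, IFNGR1, JAK1, JAK2 and STAT3 and the lowest of IFNGR2 and TYK2.

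STAT2, the ISGF3 subunit that activates transcription, had the largest change of the 9 members. Its gene is on chromosome 12 (56341597 to 56360155). STAT2 was at 47.3, 45.3 and 48.1 CPM in the vector libraries and at 69.4, 62.4 and 61.6 CPM in the TFCP2L1 libraries. Every TFCP2L1 library lay well above every vector library. The mean rose from 46.9 ± 1.44 to 64.5 ± 4.28 CPM (SD, n = 3), a fold of 1.37 and a log2 fold change of 0.46 ± 0.08 (SE; 95% interval 0.29 to 0.63). The edgeR adjusted p was 0.00123, rank 437 of the 14431 tested genes, and it was at most 0.0122 under all 17 alternatives run for it.

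STAT3 (chromosome 17, 42313324 to 42388568) was at 127, 125 and 135 CPM in the vector libraries and at 158, 163 and 151 CPM in the TFCP2L1 libraries. The groups did not overlap. The mean rose from 129 ± 5.08 to 157 ± 5.82 CPM (SD, n = 3), a fold of 1.22 and a log2 fold change of 0.28 ± 0.07 (SE; 95% interval 0.13 to 0.43), with an edgeR adjusted p of 0.0164. The call was lost when vector replicate 1 (0.0921), 2 (0.0751) or TFCP2L1 replicate 1 (0.0511) was left out.

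**Figure D3:**
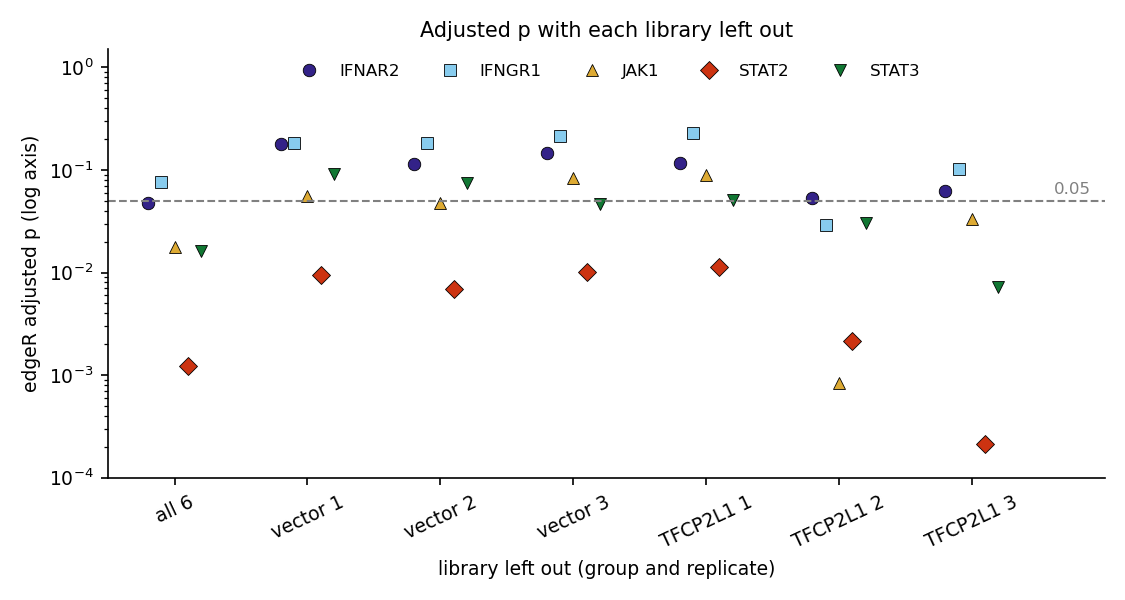
edgeR adjusted p on a log axis for the 4 called genes and IFNGR1, with all 6 libraries and with each library left out, the dashed line marking 0.05. STAT2 lies below the line throughout, IFNAR2 crosses it whichever library is left out, and IFNGR1 falls below it only without TFCP2L1 replicate 2.

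Ratios of FPKM within a library describe the balance between transcripts of partners, and no test was made of them. The ratio of IFNAR2 to IFNAR1 was 0.981, 0.920 and 0.895 in the vector libraries and 0.820, 0.766 and 0.786 in the TFCP2L1 libraries. FPKM of the type I receptor subunits were thus near equal in vector cells, with a lower ratio in every TFCP2L1 library. IFNAR2 shares exon bases with other genes, as given above, and IFNAR1 does not. The ratio may depend on how reads on shared bases were counted, and protein was not measured here. IFNGR2 exceeded IFNGR1 by a ratio of 3.67 ± 0.0699 (SD, n = 3) in vector and 3.97 ± 0.377 in TFCP2L1 cells, with overlapping libraries. The ratio of JAK2 to JAK1 was 0.0549 ± 0.00490 and 0.0780 ± 0.00735, and that of TYK2 to JAK1 was 0.450 ± 0.0135 and 0.585 ± 0.106. Neither overlapped between groups, although TYK2 to JAK1 in TFCP2L1 replicate 2 (0.464) was close to the highest vector library (0.460). Both ratios divide by JAK1, which fell, while the levels of JAK2 and TYK2 themselves overlapped between groups and were not called. STAT2 to STAT3 was 0.358 ± 0.00789 in vector and 0.405 ± 0.0280 in TFCP2L1 cells, also without overlap. Each ratio without overlap includes a member whose own groups did not overlap. Of all tested genes taken singly, 30% had groups without overlap, and no such share was computed for ratios.

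**Figure D4:**
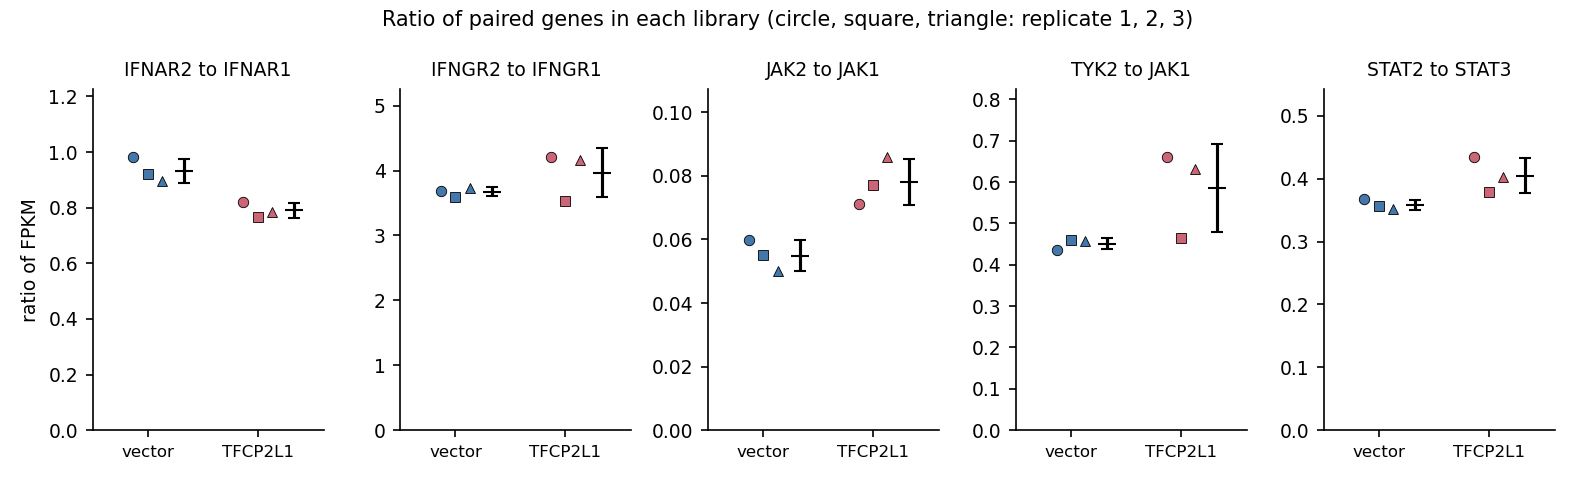
Ratio of FPKM for 5 pairs of genes in each library on axes that start at 0, with circles, squares and triangles for replicates 1, 2 and 3 and a bar for the mean ± SD of each group of 3. The IFNAR2 to IFNAR1 ratio is lower in all TFCP2L1 libraries, the 3 ratios to JAK1 or STAT3 are higher in all of them, and IFNGR2 to IFNGR1 overlaps.

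The genes whose pattern was most like that of STAT2 were EIF2S1, a translation initiation factor subunit (Pearson r = 0.992), SPRYD3 (0.991) and the gap junction gene GJB2 (0.991). EIF2S1 and GJB2 were not called (log2 fold changes 0.16 and 0.21, edgeR adjusted p = 0.164 and 0.0791). SPRYD3 was called higher (0.33, edgeR adjusted p = 0.0198). Its call was lost when vector replicate 1 (0.0982), 2 (0.0757), 3 (0.0587) or TFCP2L1 replicate 1 (0.0832) was left out. The measure was the correlation of log2 CPM over the 6 libraries, among 9427 genes with a mean of at least 10 CPM. The libraries form 2 groups of 3, so any gene that differs between the groups with little spread has a high r, and 133 genes had one above 0.95.

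IRF9, the DNA-binding subunit of ISGF3, was at 27.8, 29.2 and 27.3 CPM in vector and at 39.3, 32.8 and 32.6 CPM in TFCP2L1 libraries, without overlap. Its log2 fold change of 0.31 ± 0.10 (SE) had an edgeR adjusted p of 0.0517, which became 0.0390 without TFCP2L1 replicate 2 and 0.0221 without TFCP2L1 replicate 3. A readthrough gene shares 48.4% of the exon bases of IRF9. STAT4, STAT5A, STAT5B and STAT6 were not called either, with log2 fold changes of 0.67 ± 0.52, -0.08 ± 0.16, 0.10 ± 0.09 and -0.06 ± 0.07 (SE) and edgeR adjusted p of 0.471, 0.809, 0.559 and 0.621. STAT4 was scarce, with means of 0.450 (vector) and 0.718 (TFCP2L1) CPM. IRF9 was also called with DESeq2 (adjusted p = 0.0316) and, with edgeR, under RLE scaling (0.0494), library totals only (0.0375) and no filter (0.0276), over a range of 0.0221 to 0.203 across its alternatives. The median log2 fold change of these 5 genes was 0.10.

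Of the class 2 cytokine receptors outside the members, 3 of 6 tested genes fell and 1 rose (median log2 fold change -0.35). Over all tested genes, 6.94% were called lower and 4.63% higher. The receptor for interferon lambda belongs to this class. IFNLR1, its specific subunit, fell from 19.3 ± 2.69 to 13.1 ± 1.13 CPM (log2 fold change -0.56 ± 0.13; edgeR adjusted p = 0.00770, and 0.0541 without vector replicate 1). IL10RA, a subunit of the interleukin 10 receptor, fell from 15.9 ± 1.36 to 8.52 ± 0.863 CPM (log2 fold change -0.90 ± 0.13; edgeR adjusted p = 0.000168) and stayed called without each library. IL20RB fell by 0.33 on the log2 scale, a call lost when vector replicate 1 (edgeR adjusted p = 0.0563), 3 (0.0861) or TFCP2L1 replicate 1 (0.0649) was left out. IL22RA1 rose from 2.67 ± 0.281 to 4.64 ± 0.891 CPM, a call lost when vector replicate 1 (0.0943), 3 (0.0684), TFCP2L1 replicate 1 (0.0747) or 3 (0.0632) was left out. Without vector replicate 1, the count of lower genes in this list was 1.

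Other cytokine receptors that signal through JAKs had 3 of 14 tested genes lower and 0 higher, with a median log2 fold change of -0.13. The shares over all tested genes were 6.94% lower and 4.63% higher. IL7R, the interleukin 7 receptor, fell from 56.9 ± 2.45 to 27.6 ± 2.53 CPM (log2 fold change -1.05 ± 0.09; edgeR adjusted p = 1.03e-06). IL13RA1, a subunit of receptors for interleukins 4 and 13, fell from 88.2 ± 2.87 to 66.6 ± 7.28 CPM (log2 fold change -0.40 ± 0.09; edgeR adjusted p = 0.00550). IL6R, the ligand-binding subunit for interleukin 6, fell from 21.01 ± 1.84 to 15.6 ± 0.501 CPM, a call lost when vector replicate 2 (edgeR adjusted p = 0.0685), 3 (0.0972) or TFCP2L1 replicate 1 (0.0661) was left out. The shared signalling subunit IL6ST was at 614 and 608 CPM and was not called.

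Among negative regulators of JAK-STAT signalling 2 of 17 tested genes rose and 1 fell, with a median log2 fold change of 0.03. Over all tested genes, 11.6% were called in either direction. USP18, which binds IFNAR2 and blocks type I signalling, was at 14.0, 10.8 and 10.6 CPM in vector and at 26.9, 26.9 and 27.4 CPM in TFCP2L1 libraries. Its log2 fold change was 1.199 ± 0.12 (SE; edgeR adjusted p = 4.52e-06), and it stayed called without each library. SOCS1, an inhibitor of JAK kinases, rose from 4.27 ± 0.467 to 6.65 ± 0.922 CPM, a call lost when vector replicate 1 (edgeR adjusted p = 0.0807), 3 (0.112), TFCP2L1 replicate 1 (0.0525) or 3 (0.0788) was left out. SOCS2, an inhibitor best known in growth hormone signalling, fell from 9.11 ± 0.892 to 6.35 ± 0.539 CPM, a call lost when vector replicate 1 (0.108), 2 (0.109), TFCP2L1 replicate 1 (0.108) or 2 (0.0557) was left out. SOCS3, the inhibitor induced by STAT3, was at 38.1 and 32.3 CPM and was not called (edgeR adjusted p = 0.135).

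Transcripts of interferons were scarce. Of 22 ligand genes 5 were listed in the table and 2 were tested. IFNB1 had 0, 0 and 5 reads in vector and 4, 5 and 4 in TFCP2L1 libraries, IFNA5 had at most 1 read and IFNL2 at most 4 in any library. IFNL1, an interferon lambda, had 0, 1 and 6 reads in vector and 18, 36 and 10 in TFCP2L1 libraries (edgeR adjusted p = 0.0270, and 0.113 and 0.0858 without vector replicates 1 and 2). It passed the filter on low counts only through the TFCP2L1 libraries, so it could be called higher but not lower. Without TFCP2L1 replicate 1 or 2 it did not pass. IFNE, an interferon of epithelia, had 143 reads over the vector group and 156 over the TFCP2L1 group, and was not called.

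Genes known as targets of the STAT complexes were counted in 3 lists. Over all tested genes, 4.63% were called higher and 6.94% lower. Of 31 genes known to be induced through ISGF3, 22 rose and 1, IFI44, fell, with a median log2 fold change of 0.92. Whether ISGF3 or another factor acted on these genes here was not tested. Between 21 and 23 rose without each library. The largest rises were those of IFITM1 (5.23 ± 0.16), MX2 (5.19 ± 0.34) and BST2 (4.27 ± 0.24) on the log2 scale, and of XAF1, with 0 reads in vector and 218 in TFCP2L1 libraries, at least 70.6-fold higher against 3 reads over the vector group. These genes were scarce in vector cells, with IFITM1, MX2 and BST2 at means of 0.671, 0.203 and 0.415 CPM. MX2, with 3, 15 and 5 reads in vector libraries, and XAF1 passed the filter on low counts only through the TFCP2L1 libraries. Both could thus be called higher but not lower, and both are counted among the 22. The most abundant genes of this list in vector cells were IFIT3 (1004 CPM), IFI44 (651 CPM) and IFIT1 (447 CPM). Their log2 fold changes were -0.11 (not called), -0.46 (lower) and 0.47 (higher). Exon bases are shared for IFITM1 with IFITM2 (32.5%) and for XAF1 with an antisense gene (38.3%). Of 16 tested genes known to be induced by interferon gamma, 9 rose and 1, GBP2, fell, with a median of 0.34. Without vector replicate 3, 5 of these genes rose. The count of lower genes was 0 by edgeR when vector replicate 1, vector replicate 3 or TFCP2L1 replicate 1 was left out.

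GBP4, a guanylate-binding protein, rose from 0.203 ± 0.0311 to 1.03 ± 0.301 CPM (edgeR adjusted p = 0.00517). It had 9, 7 and 7 reads in vector libraries and passed the filter on low counts only through the TFCP2L1 libraries. GBP4 could thus be called higher but not lower, and it is counted among the genes of its list that rose. The chemokine gene CXCL11 rose from 1.298 ± 0.506 to 3.97 ± 0.624 CPM (edgeR adjusted p = 0.00108). CXCL10 rose by 0.99 on the log2 scale, a call lost when vector replicate 1 (edgeR adjusted p = 0.0818), 3 (0.108) or TFCP2L1 replicate 2 (0.0671) was left out. The immunoproteasome gene PSMB9 rose by 0.67, a call lost when vector replicate 3 (0.0831) or TFCP2L1 replicate 1 (0.0887) was left out.

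Of 19 tested genes known to be induced through STAT3, 7 fell and 1, BCL3, rose, with a median log2 fold change of -0.14. Between 5 and 8 fell without each library. The count of higher genes was 0 by edgeR when vector replicate 1, vector replicate 3, TFCP2L1 replicate 1 or TFCP2L1 replicate 3 was left out, and 2 without TFCP2L1 replicate 2. The acute-phase gene SAA1 fell from 11.7 ± 0.885 to 2.96 ± 1.06 CPM, the transcription factor gene CEBPD from 64.0 ± 6.69 to 28.5 ± 4.51 CPM, IL6 from 319 ± 58.2 to 106 ± 22.8 CPM and the lipocalin gene LCN2 from 1.97 ± 0.645 to 0.267 ± 0.171 CPM. These 4 genes are also known targets of NF-kB, and antisense genes cover 20.7% of the exon bases of IL6. HIF1A, VEGFA and CEBPB were also called lower, with log2 fold changes of -0.45, -0.30 and -0.29 (edgeR adjusted p = 0.00168, 0.0112 and 0.0167). STAT3 itself rose, as given above, while the SOCS3, MYC, CCND1 and BCL2L1 genes of this list were not called. SOCS3 and CCND1 were nonetheless lower in every TFCP2L1 library than in every vector library. BCL3, HIF1A, VEGFA, CEBPB, IFI44, GBP2, IFIT1 and IFIT3 were named after their values were seen. Differences between the lists were not tested.

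**Figure D5:**
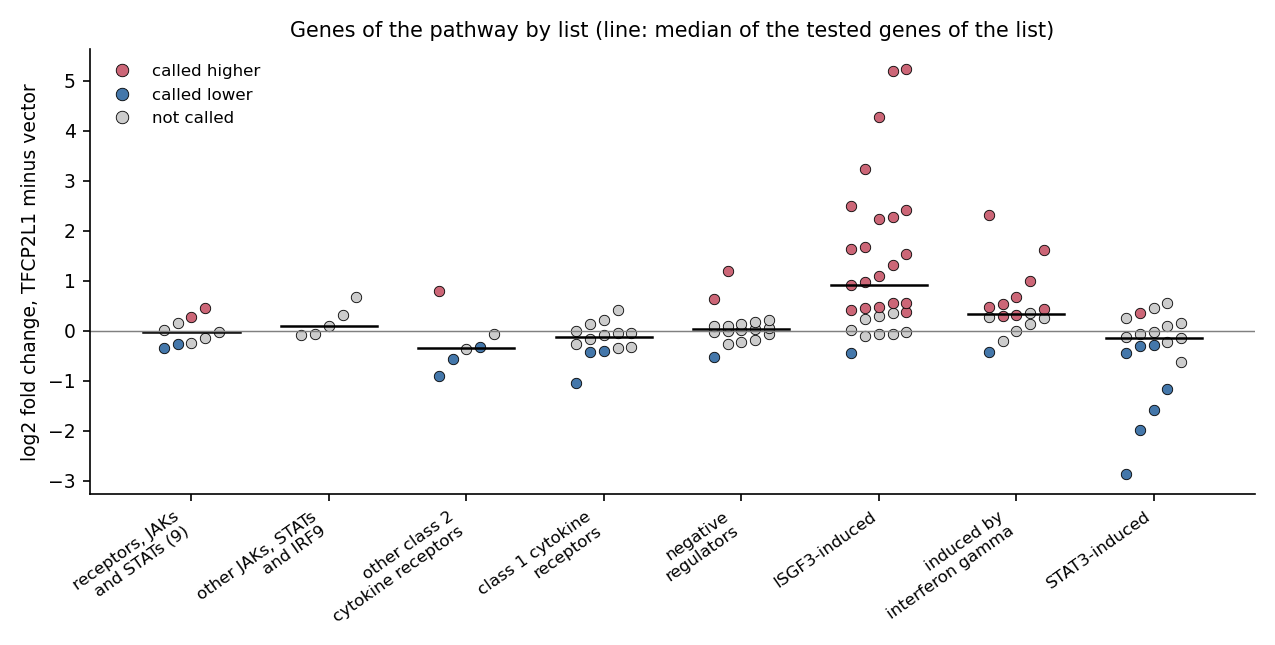
log2 fold change (TFCP2L1 minus vector) of the 9 receptor, JAK and STAT genes and of the tested genes of 7 lists, coloured by call, with a line at the median of each list. XAF1 is left out as it had 0 reads in vector libraries. The 9 genes lie within 0.46 of 0. The ISGF3-induced IFITM1 and MX2 lie above 5, and of the STAT3-induced genes only LCN2, which had low counts, lies below -2.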

How the data were processed

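RNA-seq counts of 6 TPC1 libraries were analysed. Per the submitters' processing notes, the tools were fastp, HISAT2 and HTSeq (versions not stated) and the build GRCh38.p13. The sources used here do not state the strand setting. The authors deposited raw read counts for 21173 genes and FPKM values, which equal the counts per length and per library total, with 1 length per gene to within 0.000107%. Column names carry the group and replicate number, which assigned them to samples.

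Counts were tested with edgeR 4.0.16 (R 4.3.3; filterByExpr, TMM, glmQLFit with robust estimation, glmQLFTest, two-sided, Benjamini-Hochberg over 14431 genes, threshold 0.05) in 1 fit of all 6 libraries. SE is the log2 fold change over the square root of F. Intervals are 95%. CPM use TMM-scaled library sizes. The common dispersion was 0.01157. The fit was tested on simulated counts. Positions come from GENCODE v29 (GRCh38), which matched 16481 of the 21173 symbols, and promoters from RefSeq (GRCh38.p14).

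The members and lists were chosen with earlier results of these data known. Named genes were the 9 members, TFCP2L1, up to 4 called genes of each list with the largest change (or the 2 of smallest p) and the 3 genes most like the member of largest change. A gene of the lists is not reported here. Other genes of the lists that were not called are named for their roles or levels, chosen after their values were seen. Alternatives covered other scalings and filters, DESeq2 1.42.0, limma 3.58.1 on voom weights and on the deposited FPKM, a replicate block and leaving out each library. Counts of calls per list under the block and without each library were added after seeing the data.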

Additional observations from a re-analysis of the deposited data

How the results depend on the processing

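STAT2 kept its direction and its call under all 17 alternatives, with log2 fold changes of 0.40 to 0.49. JAK1, STAT3 and IFNAR2 kept their directions, and their calls were lost under 5, 4 and 11 of the 17. The count of members called was 4, with 2 higher and 2 lower. The lower count was 1 with library totals only and 1 with no filter. With limma on log2(FPKM + 1) or log2(FPKM + 0.1), 2 members were called, 0 of them lower. Same-numbered replicates did not deviate together (correlations of 0.072, -0.161 and -0.124 for numbers 1, 2 and 3), and only vector replicate 1 was best matched by its own number. With a replicate block, 977 genes were called, 328 higher and 649 lower, and 2 members, 1 higher (STAT2) and 1 lower (JAK1). Leaving out each library gave 934 to 1872 called genes in place of 1670, 298 to 766 higher and 621 to 1106 lower, with 943 without vector replicate 1 and 934 without vector replicate 3. It gave 1 to 4 members called, 1 to 2 higher and 0 to 2 lower. Genes with a change near 0 turned direction without being called. IFNAR1 was at 0.0046 with library totals only, 0.0040 and 0.0043 with limma on log2(FPKM + 1) and log2(FPKM + 0.1), 0.0013 without vector replicate 3 and 0.016 without TFCP2L1 replicate 1, and ranged down to -0.052 without TFCP2L1 replicate 2. TYK2 was at -0.029 without vector replicate 1 and -0.058 without TFCP2L1 replicate 1, and at most 0.063 without TFCP2L1 replicate 2. IFNE was at -0.037 without vector replicate 1 and -0.15 without TFCP2L1 replicate 3, and at most 0.32 without vector replicate 2. The cause of these shifts was not tested. No scaling moved the median of all genes by more than 0.029. With 3 libraries a group, changes as small as those of IFNGR2 and JAK2 could not be told from 0, and interferon transcripts were near the limit of detection.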
